A study of Mus musculus with 6 samples.

Results

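The ionotropic glutamate receptor genes described here were Gria1, Gria2, Gria3 and Gria4 of the AMPA family, Grik1, Grik2, Grik3, Grik4 and Grik5 of the kainate family, and Grin1 of the NMDA family. They were chosen by name and matched to the deposited Ensembl identifiers, which found all 10 of them among the 41388 genes listed. The cells came from dorsal root ganglia of spinal levels T11-S1, which lie along the spinal cord and hold the cell bodies of body-sensing neurons, of C57BL/6 mouse embryos at 18.5 days post coitum. Embryos carried RetFloxedEGFP together with Cre at the NaV1.8 (Scn10a) locus, so that EGFP marked Ret-population cells in which that Cre had acted, and the EGFP-positive cells were sorted by flow cytometry. There were 3 libraries from females and 3 from males, which differed in no other labelled treatment and are named by sex and letter. All female libraries and male A were pools of 40 ganglia of 2 embryos, male B pooled 60 ganglia of 3 embryos, and male C held 20 ganglia of 1 embryo, was deposited with later records and had a genotype label that names only the Ret allele. The sample title of male C names the NaV1.8 Cre as well. No other population was analysed here, so the levels describe this sorted population and were not set against unsorted ganglia or other neurons.

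Ionotropic glutamate receptors are cation channels built from 4 subunits and opened by glutamate, the main fast excitatory transmitter. AMPA receptors carry fast synaptic currents, NMDA receptors need an obligatory subunit encoded by Grin1 together with Grin2 or Grin3 subunits, and kainate receptors combine low-affinity subunits (Grik1 to Grik3) with high-affinity partners (Grik4 and Grik5). In sensory neurons, kainate receptors containing the Grik1 product, GluK1, are the classical kainate-responsive channels of small-diameter C-fibre neurons.

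Library totals ranged from 15693013 to 24033601 counted reads. Levels are given as RPKM, the read count scaled to the deposited gene length in kilobases and to the library size, which was adjusted by TMM factors, and errors are SDs over the 6 libraries taken as 1 population. The markers of the sort were present, with Scn10a at 119 ± 16.8 RPKM and Ret at 27.8 ± 3.82 RPKM (SD, n = 6). Of the spinal cord markers, Olig1, Olig2, Slc32a1 and Pax2 had no read in any library, and the 9 markers summed to between 0.376 and 0.779 RPKM. Markers of satellite glia and Schwann cells were present, with 11 of 12 above 1 RPKM, none at 0 and a summed level of 969 to 1155 RPKM, led by Pmp22 and Fabp7. Of the fibroblast and meninges markers 4 of 5 averaged above 1 RPKM, with a sum of 145 to 168 RPKM that was mostly Dcn at 133 ± 13.7 RPKM, a level above that of Scn10a. Endothelial and pericyte markers summed to 13.3 to 18.7 RPKM, with 2 of 6 above 1 RPKM, immune markers to 0.413 to 0.729 RPKM and sympathetic neuron markers to 0.0388 to 0.490 RPKM. Haemoglobin and other red blood cell markers summed to 41.3 to 223 RPKM in 5 libraries and to 1256 RPKM in male A. The part of these other cells in the levels below was not tested.

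Grik1 was by far the most abundant of the receptor genes, at 35.1 times the mean level of the next, Gria1. Grik1 (ENSMUSG00000022935, chromosome 16, 87896196 to 88056176, minus strand, GRCm38.p2) encodes the kainate subunit GluK1. Its level was 496, 407 and 332 RPKM in the females (A, B, C) and 386, 351 and 513 RPKM in the males (A, B, C), a mean of 414 ± 75.0 RPKM (SD, n = 6). The highest values were in male C and female A and the lowest in female C, and the ranges of the sexes overlapped. These values rested on between 23937 and 31210 reads per library, and Grik1 ranked 92 among all listed genes by mean RPKM, between rank 67 in female A and rank 122 in female C. Its level was 12.8 ± 1.76 times the summed RPKM of the other 9 genes, from 10.9 times in female C to 15.9 times in male C. In these sorted-cell RNA samples, a higher share of cells expressing a gene and more RNA per cell cannot be told apart.

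The position at which the subunits are best known to differ after transcription lies in the pore loop, where the genome encodes glutamine at the Q/R site of AMPA and kainate subunits. Editing of the transcript by ADAR enzymes changes this codon to one for arginine in Gria2, nearly completely, and partly in Grik1 and Grik2, and it lowers the calcium permeability of the channel. The stretches below show this site in the most abundant gene of each of these families and in a relative that is edited there, as coding sequence of GENCODE M21 transcripts on GRCm38, with 27 bases before and 60 bases after the codon, which is in capitals.
Gria1: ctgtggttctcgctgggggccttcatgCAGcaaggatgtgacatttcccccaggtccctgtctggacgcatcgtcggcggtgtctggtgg
Gria2: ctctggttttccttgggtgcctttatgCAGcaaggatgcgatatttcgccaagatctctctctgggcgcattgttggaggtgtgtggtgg
Grik1: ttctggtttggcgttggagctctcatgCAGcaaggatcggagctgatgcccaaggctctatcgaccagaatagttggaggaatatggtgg
Grik2: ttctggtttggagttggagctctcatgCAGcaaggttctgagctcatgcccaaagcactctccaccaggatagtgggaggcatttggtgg
The capitalised codon is number 607 of the Gria2 coding sequence (chr3:80706911-80706913, minus strand, exon 11 of 16) and number 621 of that of Grik1 (chr16:87940542-87940544, minus strand, exon 12 of 17). The codon was CAG in Gria1, Gria2, Gria3 and all 5 kainate genes, and CAA in Gria4. Over these 90 bases Gria1 shared 80.0% of bases with Gria2, Gria3 shared 91.1% and Gria4 85.6%, and Grik2 shared 86.7% with Grik1. At the aligned place Grin1 carries AAC, codon 616 of its coding sequence, the asparagine codon of the NMDA receptor pore. These are genomic letters, and counts per gene do not measure how much of the RNA was edited. Of the editing enzyme genes, Adar was at 4.67 ± 0.708 RPKM, Adarb1, which encodes the enzyme ADAR2 that edits the Gria2 site, at 2.99 ± 0.363 RPKM and Adarb2 at 0.0716 ± 0.0435 RPKM (SD, n = 6).

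**Figure D1:**
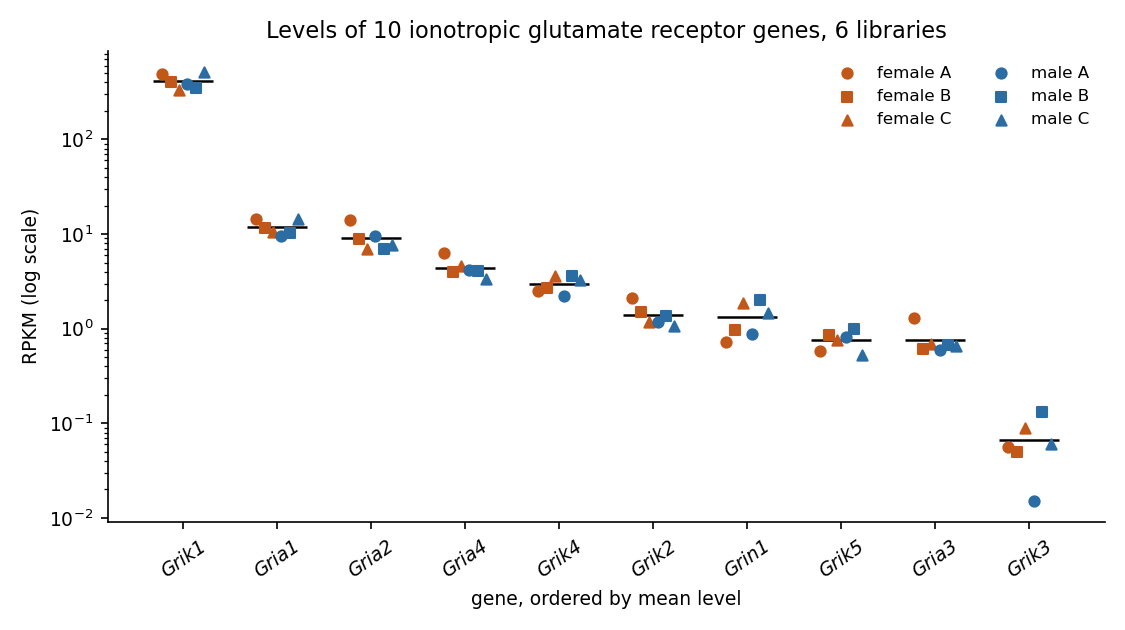
Level of each of the 10 ionotropic glutamate receptor genes in RPKM (log axis) by gene, with 1 point per library (orange female, blue male, shape by letter) and the mean of 6 libraries as a black line. Grik1 lies at 332 to 513 RPKM, above all other genes in every library, and Grik3 lies below all others.

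Among the AMPA genes, Gria1 and Gria2 made up most of the transcripts, Gria4 was lower and Gria3 was a minor component. Gria1 (ENSMUSG00000020524, chromosome 11, 57011387 to 57330244, plus strand) encodes GluA1, a subunit with an unedited, calcium-permeable pore. Its level was 14.5, 11.6 and 10.6 RPKM in the females (A, B, C) and 9.47, 10.2 and 14.5 RPKM in the males (A, B, C). The highest values were in female A and male C, the same libraries in which Grik1 was highest, and the sexes overlapped. Gria2 (ENSMUSG00000033981, chromosome 3, 80684936 to 80802791, minus strand) encodes GluA2, the subunit whose edited form makes AMPA receptors impermeable to calcium. Its level was 13.9, 8.84 and 6.96 RPKM in the females (A, B, C) and 9.64, 7.02 and 7.59 RPKM in the males (A, B, C). Female A was highest, the other 5 libraries lay within 6.96 to 9.64 RPKM, and the sexes overlapped. Gria4 (ENSMUSG00000025892, chromosome 9, 4417899 to 4796234, minus strand), encoding GluA4, was at 6.26, 3.96 and 4.65 RPKM in the females and 4.13, 4.06 and 3.34 RPKM in the males, again highest in female A. Gria3 (ENSMUSG00000001986, chromosome X, 41400854 to 41678601, plus strand), encoding GluA3, was at 1.30 RPKM in female A and between 0.593 and 0.685 RPKM in the other 5 libraries.

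As shares of the summed AMPA RPKM, Gria1 took 45.8 ± 5.69%, Gria2 34.3 ± 4.59%, Gria4 17.0 ± 2.54% and Gria3 2.86 ± 0.459% (SD, n = 6). The summed level of the 4 genes was 26.0 ± 5.15 RPKM, and Grik1 alone stood at 16.1 ± 2.06 times that sum. The ratio of Gria2 to Gria1 was 0.958, 0.762 and 0.655 in the females (A, B, C) and 1.02, 0.691 and 0.525 in the males (A, B, C). In RPKM, Gria1 was thus the higher of the pair in 5 of 6 libraries, and male A was the exception. In reads, before division by length, Gria2 was the higher in both female A (1539 against 1396) and male A (1469 against 1253). Male C combined the highest Gria1 share, 55.5%, with the lowest Gria2 and Gria4 shares, 29.1% and 12.8%. Such a share describes RNA and does not give the subunit makeup of assembled receptors.

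**Figure D2:**
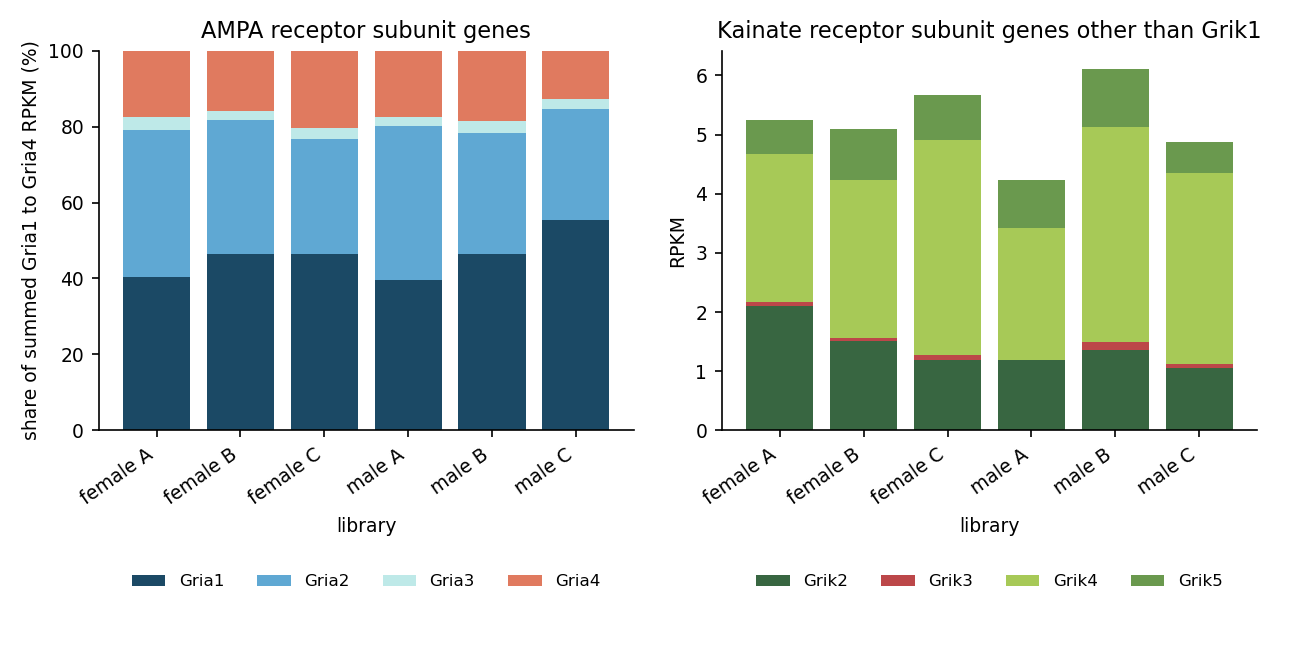
Left, share of each AMPA gene in the summed Gria1 to Gria4 RPKM of each library, in percent. Right, stacked RPKM of the kainate genes other than Grik1, whose sum ranged from 4.24 RPKM in male A to 6.11 RPKM in male B. Grik4 was the highest of these genes in each library, with Grik2 close in female A (2.503 against 2.108 RPKM).

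In the kainate family Grik1 made up 98.7 ± 0.334% of the summed RPKM, and the partner genes were present at low levels. Grik4 (ENSMUSG00000032017, chromosome 9, 42518135 to 42944493, minus strand) encodes the high-affinity subunit GluK4, which forms channels only with a low-affinity subunit. Its level was 2.503, 2.68 and 3.63 RPKM in the females (A, B, C) and 2.23, 3.63 and 3.24 RPKM in the males (A, B, C), highest in female C and male B. Grik5 (ENSMUSG00000003378, chromosome 7, 25009853 to 25072369, minus strand), which encodes the other high-affinity subunit, GluK5, was lower at 0.575, 0.864 and 0.765 RPKM in the females and 0.810, 0.990 and 0.526 RPKM in the males. The ratio of Grik4 to Grik5 was 4.13 ± 1.24 and lay above 1 in 6 of 6 libraries, from 2.75 in male A to 6.16 in male C.

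Grik2 (ENSMUSG00000056073, chromosome 10, 49099460 to 49788766, minus strand), the low-affinity subunit GluK2 that prevails in many central neurons, was at 2.11, 1.503 and 1.19 RPKM in the females and 1.18, 1.36 and 1.06 RPKM in the males. Grik1 exceeded it 309 ± 91.6 times, from 235 times in female A to 486 times in male C. Grik3 (ENSMUSG00000001985, chromosome 4, 125490700 to 125714173, plus strand), encoding GluK3, was close to the detection limit, with 8, 11 and 19 reads in the females (A, B, C) and 3, 28 and 8 reads in the males (A, B, C). Its mean was 0.0667 ± 0.0390 RPKM (SD, n = 6), and at so few reads counting error alone gives a coefficient of variation of 27.9%, against 58.4% observed. The level of both high-affinity genes together, 3.74 ± 0.660 RPKM, was above that of Grik2 and Grik3 together, 1.47 ± 0.381 RPKM, in each of the 6 libraries. This order rests in part on the division by length, since female A held 272 reads of the high-affinity genes and 285 of Grik2 and Grik3.

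Length enters every comparison between genes, and Grik1 has the shortest deposited length of the 10, 3137 bases, against 9859 bases for Gria3. Before division by length Grik1 took 1299 ± 235 CPM, the count scaled to library size alone, and Gria1 71.4 ± 13.3 CPM (SD, n = 6), so the order of these 2 genes did not rest on length. The deposited bounds of Gria2, Gria4, Grik1, Grik2 and Grik5 differ from those of GENCODE M21, which places the far end of Grik1 at 88290265, so the lengths belong to the annotation the authors counted on.

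Grin1, the obligatory NMDA receptor gene, was expressed at a low level that varied more between libraries than that of most genes. Grin1 (ENSMUSG00000026959, chromosome 2, 25291181 to 25319187, minus strand) encodes GluN1. Its level was 0.727, 0.966 and 1.87 RPKM in the females (A, B, C) and 0.880, 1.99 and 1.45 RPKM in the males (A, B, C), a mean of 1.31 ± 0.537 RPKM (SD, n = 6). Female C, male B and male C were high and the other 3 libraries low, with both kinds of value in each sex. Its biological coefficient of variation, the spread between libraries of a sex beyond counting error, was 0.342, at percentile 82.6 of the genes tested. Grin1 shares 1307 exon bases with the antisense gene Grin1os, and no source used here states whether reads were counted by strand. Grin1os had 0 reads in all 6 libraries, which cannot show whether reads over the shared bases were counted for Grin1. The effect of this overlap on the Grin1 level was not tested.

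The Grin2 genes, whose products bind glutamate in conventional NMDA receptors, were close to the detection limit. All 4 Grin2 genes together had 7, 10 and 17 reads in the females (A, B, C) and 15, 14 and 7 reads in the males (A, B, C), a summed level of 0.0836 ± 0.0204 RPKM (SD, n = 6). Grin2d averaged 0.0442, Grin2a 0.0338 and Grin2b 0.00426 RPKM. Grin2c had 1 read, in female C, and the limit that a count of 0 allows in the other libraries (3 reads) lay between 0.0244 and 0.0401 RPKM. Grin3a, which encodes a glycine-binding subunit, was the highest of these partners at 2.06, 2.54 and 1.59 RPKM in the females and 1.96, 1.84 and 1.28 RPKM in the males. The ratio of Grin1 to Grin3a was 0.353, 0.381 and 1.18 in the females (A, B, C) and 0.449, 1.09 and 1.14 in the males (A, B, C). It lay above 1 in female C, male B and male C, the libraries of highest Grin1. Grin3b averaged 0.0673 RPKM, and the delta receptor gene Grid1 averaged 0.324 RPKM.

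By mean level the genes ranked Grik1, Gria1, Gria2, Gria4, Grik4, Grik2, Grin1, Grik5, Gria3 and Grik3. The ranges over libraries did not overlap between Grik1 and Gria1 (a log2 difference of 5.13 ± 0.12), Gria2 and Gria4 (1.02 ± 0.26), Grik4 and Grik2 (1.11 ± 0.54), or Gria3 and Grik3 (3.70 ± 1.06), each in the same order in 6 of 6 libraries. Gria4 lay above Grik4 (0.56 ± 0.48) and Grin1 above Grik5 (0.73 ± 0.60) in 6 of 6 libraries, though their ranges overlapped. The order of Gria1 and Gria2 held in 5 of 6 libraries (0.42 ± 0.36), that of Grik5 and Gria3 in 4 (0.03 ± 0.68) and that of Grik2 and Grin1 in 3 (0.16 ± 0.87), so the last 2 pairs did not differ beyond their spread. All these orders are in RPKM, and some change before division by length. In reads, female A had Grik2 above Grik4 (277 against 237) and Gria2 above Gria1 (1539 against 1396). Mean CPM was 7.44 for Gria3 and 2.90 for Grik5.

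The genes did not all follow the same libraries. Female C, male B and male C held the 3 highest levels of Grin1 and of Grik4 and the 3 lowest levels of Gria2, a pattern noted after the values were seen. Neto2 had its 3 lowest levels in the same libraries. They differ in sex, in the number of pooled embryos and in depth. How many of all genes tested split the libraries in this way was not counted. Over all genes tested, deviations from the mean of each sex correlated at 0.549 between female C and male B. Between female C and male C they correlated at -0.0773. The summed level of the glial marker list was 1028, 969 and 1103 RPKM in the females (A, B, C) and 1052, 1146 and 1155 RPKM in the males (A, B, C), and so was also highest in these 3 libraries. Its member Apoe was at 119.8, 135 and 264 RPKM in the females and 108, 268 and 155 RPKM in the males. The part of glial RNA in the receptor values was not tested.

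Female A was the highest library for Gria1, Gria2, Gria3, Gria4 and Grik2, that is for 5 of the 10 genes, where it was highest for 19.8% of all genes tested. Male B was highest for Grik3, Grik4, Grik5 and Grin1, and for 17.3% of all genes tested. Male C was highest for Grik1 (22.7% of all genes tested) and lowest for Gria4, Grik2 and Grik5 (22.9%). The summed level of 8 markers of large-diameter neurons, 6 of them above 1 RPKM and none at 0, was also lowest in male C, at 62.4 RPKM against 70.4 to 88.5 RPKM in the other libraries. Of the 8, Etv1, Ntrk2 and Spp1 were not lowest there, and the part of these neurons in the receptor values was not tested.

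**Figure D3:**
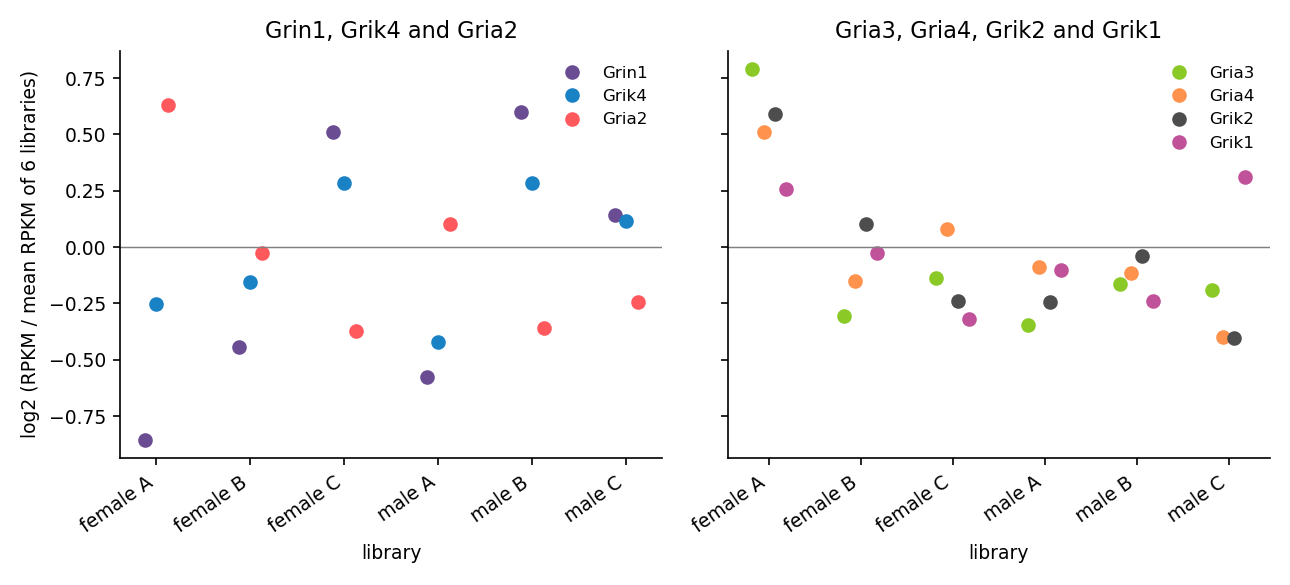
Level of 7 of the genes in each library relative to the gene's mean over 6 libraries, as log2 ratios. Left, Grin1 and Grik4 lie above their means and Gria2 below its mean in female C, male B and male C. Right, Gria3, Gria4 and Grik2 are highest in female A, and Grik1 in male C.

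Female and male libraries were compared with edgeR's quasi-likelihood test over 15026 genes, sex being the factor the labels vary. No receptor gene was called at a Benjamini-Hochberg adjusted p of 0.05, and 0 of 10 had an unadjusted p below 0.05, where 5 genes of all those tested (0.0333%) were called, 1 higher in females and 4 higher in males, and 166 had an unadjusted p below 0.05. DESeq2 called 0 of the 10 as well. The largest differences, as log2 fold changes of female over male with standard errors, were 0.42 ± 0.31 for Gria3, 0.41 ± 0.26 for Grik2 and 0.36 ± 0.22 for Gria4, the last with the smallest unadjusted p of the 10, 0.124 (edgeR). Gria2 was at 0.29 ± 0.26 and Gria1 at 0.11 ± 0.21. Grin1 was at -0.27 ± 0.39, Grik3 at -0.09 ± 0.67, Grik5 at -0.08 ± 0.34, Grik4 at -0.04 ± 0.25 and Grik1 at -0.02 ± 0.20. The adjusted p was 0.9997 for each (edgeR quasi-likelihood test).

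The 10 genes had a median log2 fold change of 0.05 with 5 above 0, beside a median of -0.01 over all genes tested, of which 49.1% lay above 0. The ranges of the sexes overlapped for each of the 10. Ranges did not overlap for 5.70% of all genes tested, so 0 of 10 lies near that share. Their median biological coefficient of variation, 0.240, lay beside 0.238 over all genes tested. Without female A the log2 fold change of Gria3 was 0.01. Without female C that of Grin1 was -0.76 and that of Grik2 0.58, with unadjusted p of 0.0464 and 0.0481 and adjusted p of 0.782 for both (edgeR). In that fit 802 of 15276 genes had an unadjusted p below 0.05, beside 166 of 15026 with all libraries (edgeR).

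**Figure D4:**
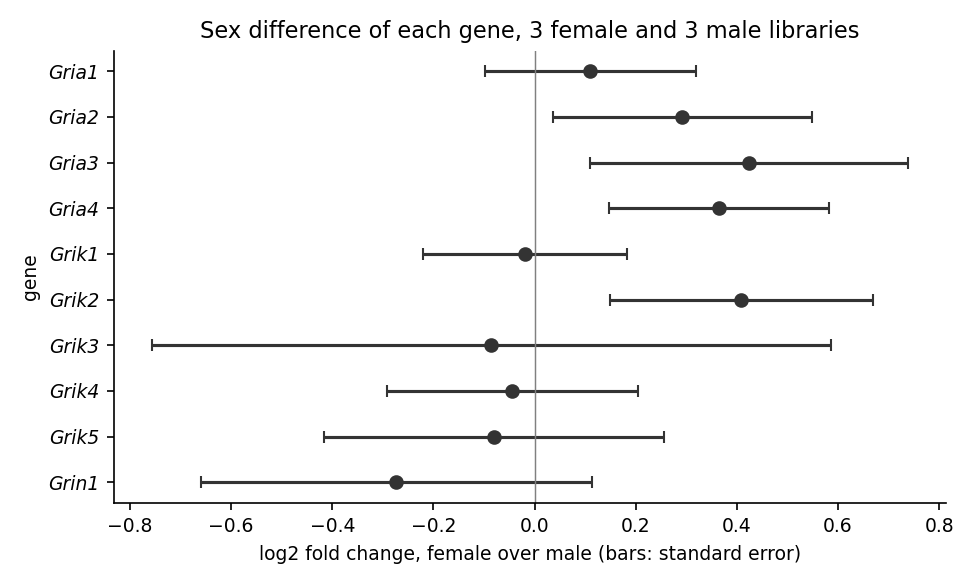
Log2 fold change of female over male libraries for each gene (points) with its standard error (bars), from edgeR's quasi-likelihood fit of 3 female and 3 male libraries. Values run from -0.27 for Grin1 to 0.42 for Gria3, and no gene was called.

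The proteins that accompany these receptors were read from lists of 62 further genes, of which 53 passed the filter on low counts. Of these 53, 0 were called between the sexes, beside 0.0333% of all genes tested, and the smallest unadjusted p was 0.104, for Shisa6 (edgeR). A log2 fold change above 0 was found for 38 (71.7%), beside 49.1% of all genes tested. Their median was 0.11, beside -0.005 over all genes tested. Whether these genes differ between the sexes as a set was not tested. The auxiliary subunits of kainate receptors, which shape their gating, were unequal. Neto2 was at 29.7, 26.1 and 15.01 RPKM in the females (A, B, C) and 26.1, 16.6 and 17.9 RPKM in the males (A, B, C). Neto1 averaged 1.04 ± 0.434 RPKM (SD, n = 6), and Neto2 exceeded it by 13.3 to 78.3 times, most in male C, where Neto1 was at 0.229 RPKM. Grik1 exceeded Neto2 19.8 ± 5.26 times.

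Of 16 genes for AMPA receptor auxiliary and assembly proteins, 11 averaged above 1 RPKM. The highest were Cpt1c, which encodes an endoplasmic reticulum partner of AMPA receptors, at 30.7 ± 7.80 RPKM, Abhd6, whose product limits their surface delivery, at 12.9 ± 1.27 RPKM, and Porcn at 7.58 ± 1.36 RPKM (SD, n = 6). Cacng7 and Cacng8, which encode transmembrane AMPA receptor regulatory proteins (TARPs), had no read in any library, which allows up to 0.0109 and 0.0127 RPKM over all 6. Other TARP genes, named after their values were seen, were present, with Cacng5 at 5.28 ± 0.785, Cacng3 at 4.46 ± 0.864, Cacng4 at 2.34 ± 0.378 and Cacng2, the stargazin gene, at 0.191 ± 0.0422 RPKM.

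Among 18 scaffold and trafficking genes, 10 averaged above 1 RPKM. Nsf, an ATPase of membrane fusion that binds GluA2, was at 61.1 ± 7.35 RPKM, and the neuronal pentraxin genes Nptxr and Nptx2, whose products cluster AMPA receptors, were at 22.6 ± 4.12 and 14.1 ± 2.57 RPKM. Of the 8 metabotropic receptor genes, the G-protein-coupled counterparts, Grm7 was at 12.8 ± 1.07, Grm8 at 6.45 ± 0.969 and Grm3 at 1.73 ± 0.436 RPKM, and the lowest, Grm6, at 0.00639 RPKM. The vesicular glutamate transporter gene Slc17a6, which fills synaptic vesicles in glutamatergic neurons, was at 143 ± 28.2 RPKM, the glial uptake transporter gene Slc1a3 at 0.451 ± 0.0635 and Slc1a1 at 0.121 ± 0.104 RPKM (SD, n = 6).

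**Figure D5:**
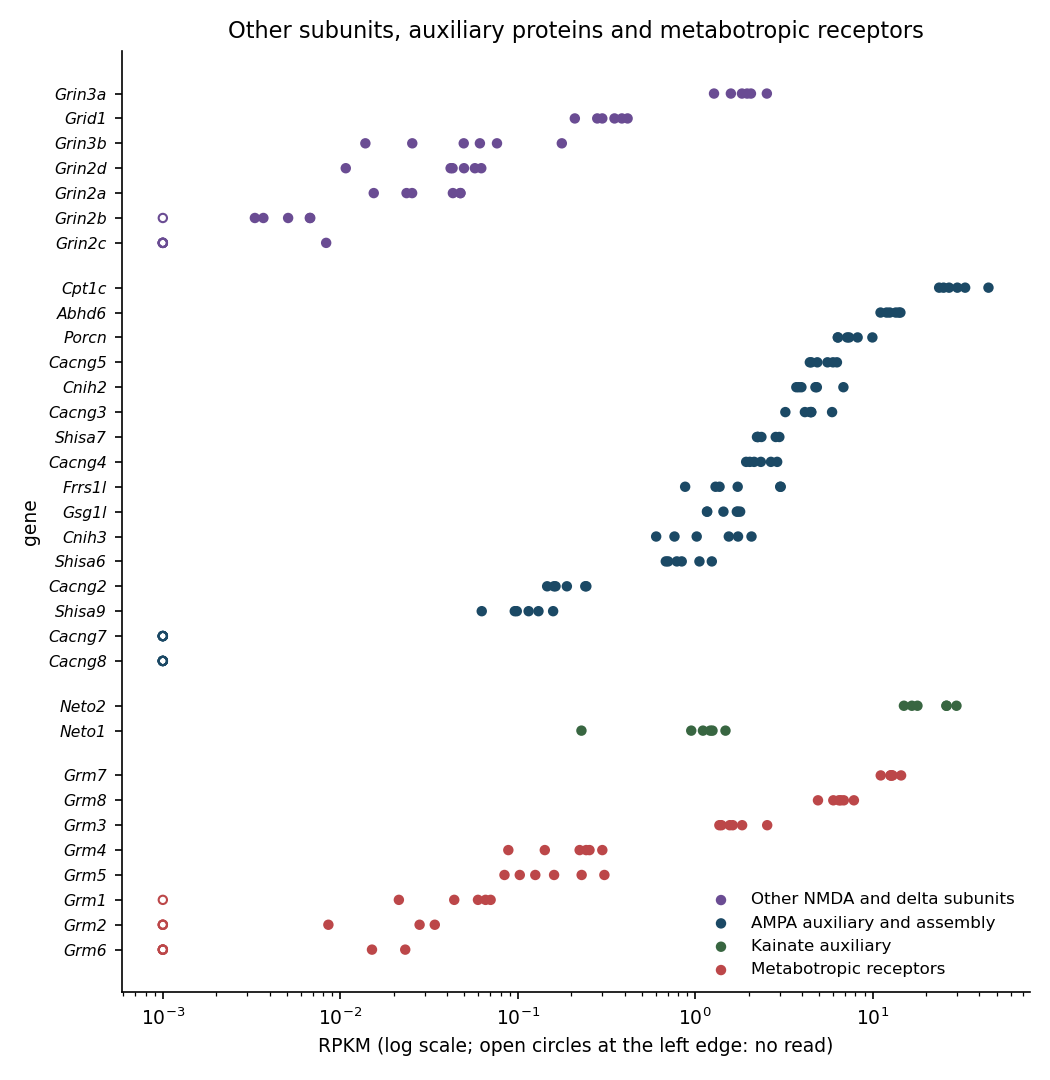
RPKM (log axis) of other NMDA and delta subunit genes, AMPA and kainate auxiliary genes and metabotropic receptor genes, 1 point per library, with open circles at the left edge where a library had no read. Neto2 lies between 15.01 and 29.7 RPKM, and Cacng7 and Cacng8 have no read in any library.

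The genes whose levels varied over the libraries most like those of 3 receptor genes were found by the root mean square difference of mean-centred log2 CPM profiles over the 6 libraries, among 8761 tested genes of at least 10 CPM. For Grik1 they were Dgkh (0.0423), a diacylglycerol kinase gene, Nop56 (0.0460), a nucleolar protein gene, and Gmps (0.0481), a gene of guanine nucleotide synthesis, where the median gene differed by 0.290. Dgkh also matched Grik1 in level, at 414 ± 68.5 RPKM. For Gria1 they were Numb (0.0429), a regulator of endocytosis and cell fate, Kansl3 (0.0512) and Brd8 (0.0673), both of chromatin-modifying complexes. For Grin1 they were Fam131a (0.0475), Cnn2 (0.0594), the calponin 2 gene, and Ubald1 (0.0753), where the median gene differed by 0.599. These likenesses rest on 6 libraries and are given as a description.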

How the data were processed

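RNA was sequenced from sorted cells of 6 libraries, with 10 ng of total RNA amplified with a SMARTer low-input kit and 12 PCR cycles, per the labels' protocols. The authors deposited per gene a length, read counts, and CPM and RPKM values. Counting used featureCounts 1.4.5 of Subread and the build GRCm38.p2, per the submitters' processing notes. Not given in the sources used here are the annotation release, whether counting used strand, and how reads with several matches were handled. The deposited counts summed to 15693013 to 24033601 reads per library. The CPM and RPKM deposited by the authors equalled values recomputed from the counts and lengths, so levels were recomputed with TMM-scaled library sizes (edgeR 4.0.16, R 4.3.3). Symbols came from GENCODE M21 (97.3% of identifiers), as did the coding sequences.

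Sexes were compared with edgeR's quasi-likelihood test on counts after filterByExpr at default settings, two-sided, with Benjamini-Hochberg adjustment at 0.05 over all genes tested. The edgeR step was tested on simulated data. The libraries came from different embryos, so p-values measure the spread between pools of 1 to 3 animals. Levels of different genes were not tested. The limit for a count of 0 is 3 reads and covers counting error alone, as PCR copies of a molecule were not told apart. The text names the 10 receptor genes, all other subunit genes, the 3 highest and the lowest gene of each other list, the genes of most similar profile, and a few others said to be chosen after their values were seen. Some genes this rule gives are not reported here. The receptor genes and lists were chosen with earlier results of these data known. Alternatives were RLE factors, no filter, DESeq2 1.42.0, the label letter as a block, total-count scaling, CPM for shares and each library left out.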

Additional observations from a re-analysis of the deposited data

Results flagged for a closer look

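Gria3 was at 1.303 RPKM in female A, while the other 5 libraries lay between 0.593 and 0.685 RPKM. The gap to the nearest library was 0.870 of the whole range of the 6 libraries taken as 1 population, above Dixon's 95% critical value for 6 libraries, which chance exceeds in about 1 in 20 groups, and 10 genes were examined. Female A held 204 Gria3 reads and between 97 and 161 reads were counted in the others, a mean over which counting error gives a coefficient of variation of 8.18%. Without female A the mean level was 0.644 RPKM. Gria2, also highest in female A, lay just inside the critical value at 0.615.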

How the results depend on the processing

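Each of the 10 mean levels moved by less than 1 SD under RLE factors, total-count scaling and each library left out (80 of 80 values). The subunit shares did so with each library left out (54 of 54). Leaving out 1 library cannot move a mean by as much as 1 SD of the same libraries. The leave-one-out part of these counts was therefore fixed in advance and is no test of stability. Over those fits the mean level ranged from 394.1 to 430.4 RPKM for Grik1 and from 0.6444 to 0.7864 RPKM for Gria3. With CPM in place of RPKM, which drops the division by length, the share of Gria3 among AMPA genes was 4.343%, and among kainate genes Grik1 held 97.46%, Grik2 0.8788%, Grik3 0.04778% and Grik4 1.388%. Each of these shares moved by more than 1 SD from its RPKM value, while those of Gria1, Gria2, Gria4 and Grik5 moved by less. Genes called between sexes numbered 5 under RLE factors and in each fit with a library left out, 7 with DESeq2 and 12 with no filter on low counts, where 25803 genes entered. No receptor gene was called under any alternative run, and the smallest adjusted p over them was 0.782. With the letter as a replicate block, 5 genes and 0 receptor genes were called and Grik3 reversed to 0.123. The letters did not pair the libraries, since deviations of same-lettered libraries correlated at 0.284 for A, -0.294 for B and -0.0773 for C. Of 100 alternative sex differences 16 changed sign, in 7 genes, all of them under the block or with a library left out. With each library left out, log2 fold changes ranged from -0.031 to 0.32 for Gria1, -0.033 to 0.492 for Gria2, -0.174 to 0.159 for Grik1, -0.57 to 0.875 for Grik3, -0.226 to 0.11 for Grik4, -0.286 to 0.134 for Grik5 and -0.764 to 0.04 for Grin1. The cause of these changes was not tested. Depth limits Grik3 and the Grin2 genes, which had at most 28 and 17 reads in a library.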
